A study of Caenorhabditis elegans with 2 samples.

Results

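The transfer RNA (tRNA) genes of Caenorhabditis elegans were examined for binding of CEH-31, a transcription factor with a Bar-class homeodomain. All 612 genes of biotype tRNA on chromosomes I to V and X were taken from the Ensembl annotation of WBcel235 (the ce11 build), out of 46890 annotated genes of all kinds on these chromosomes. Each gene was extended by 200 bp to either side, and the summits of the deposited CEH-31 peaks inside this window were read. No measured value was used to choose the genes.

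The data came from 2 biological replicates of a chromatin immunoprecipitation experiment, which form a single group. The animals were hermaphrodites of strain OP370, genotype unc-119(tm4063) III; wgIs370, in which the integrated transgene wgIs370 makes CEH-31 with a C-terminal GFP and FLAG tag. Whole late embryos, 5 h after synchronization by bleaching, were used, so signal from all tissues was pooled, and the pull-down used an anti-GFP antibody per the description (the antibody label names ceh-31). There was no second strain, stage or treatment, and nothing below compares conditions. The optimal list, which came from the authors' threshold on reproducibility between replicates, had 3697 peaks. The relaxed lists, which hold peaks and background regions, had 24555 peaks for the pooled replicates, 21175 for replicate 1 and 22471 for replicate 2. At the 15 most intense tRNA genes the optimal and pooled lists held the same summit at the same signal and rank. The weakest optimal peak had a signal of 90.5. The strongest pooled signal at a tRNA gene without an optimal summit was 90.3. At tRNA genes the optimal list thus matched a cut on pooled signal. It does not show that each peak was strong in both replicates.

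tRNA genes are short and are transcribed by RNA polymerase III from a promoter that lies inside the gene. It consists of an A box and a B box, which are bound by the factor TFIIIC. TFIIIC places TFIIIB just upstream of the start, TFIIIB recruits the polymerase, and transcription ends at a run of T residues behind the gene. Many tRNA genes share their sequence with other genes and differ from them only in what surrounds them.

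The sequences of several tRNA genes are shown first, because identical gene bodies turn out to carry different CEH-31 signals. They are the RefSeq genome sequence (WBcel235) of the whole gene on its own strand, 5′ to 3′. Capitals mark the first match to the core letters of the A box (TGG, 6 bases of any kind, then GG) and to the core letters GTTCGANNC of the B box. The first 3 are strongly occupied genes, namely the tRNA gene with the highest signal, which has a body found nowhere else, the most intense gene on V, and a member of a family of 15 identical genes:
C04A11.t1 (tRNA-Leu, chrX:13665555-13665673, + strand): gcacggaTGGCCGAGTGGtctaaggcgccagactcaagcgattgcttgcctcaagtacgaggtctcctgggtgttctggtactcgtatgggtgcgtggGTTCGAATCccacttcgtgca
F57F5.t1 (tRNA-Ile, chrV:12002176-12002260, + strand): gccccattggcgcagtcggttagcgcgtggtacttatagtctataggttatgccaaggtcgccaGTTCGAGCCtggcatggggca
R04A9.t1 (tRNA-Gln, chrX:410391-410462, + strand): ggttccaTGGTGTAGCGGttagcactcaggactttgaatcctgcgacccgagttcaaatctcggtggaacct

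The next 3 stand for the only sets of identical genes, each of 2 copies, in which every copy had an optimal summit:
C43G2.t1 (tRNA-Leu, chrIV:6556818-6556901, + strand): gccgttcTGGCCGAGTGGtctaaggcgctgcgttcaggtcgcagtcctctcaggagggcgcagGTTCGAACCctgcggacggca
F10C1.t2 (tRNA-Leu, chrII:5772916-5772999, - strand): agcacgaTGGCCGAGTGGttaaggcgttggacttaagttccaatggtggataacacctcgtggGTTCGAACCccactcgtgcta
F29C4.t1 (tRNA-Arg, chrIV:143982-144054, + strand): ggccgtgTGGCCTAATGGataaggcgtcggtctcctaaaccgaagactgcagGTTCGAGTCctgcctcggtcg

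The last 2 stand for sets of 4 and 3 identical genes in which no copy had an optimal summit:
T01B4.t1 (tRNA-Val, chrX:16298341-16298413, + strand): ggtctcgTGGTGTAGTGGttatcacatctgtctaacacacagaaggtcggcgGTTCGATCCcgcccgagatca
F49E7.t3 (tRNA-Arg, chrX:1089173-1089245, - strand): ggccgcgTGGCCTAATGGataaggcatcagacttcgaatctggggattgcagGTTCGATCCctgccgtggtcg

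The arginine tRNA genes F29C4.t1 and F49E7.t3 differ at 15 of 73 bases, and both hold both cores. C43G2.t1, F10C1.t2 and T01B4.t1 hold both as well. R04A9.t1 has no exact match to the B box core and F57F5.t1 none to the A box core. In each of the sets of T01B4.t1 and F49E7.t3, 1 copy had a summit in the pooled relaxed list.

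Many tRNA genes carried a CEH-31 summit of the optimal list. Of 612 genes, 148 had a summit of the optimal list in their window (24.2%, 95% Wilson interval 21.0% to 27.7%). For comparison, 1.69% of all 472-bp tiles of the 6 chromosomes, the length of a median tRNA window, held an optimal summit, and 5.05% of the windows of 200 bp either side of a protein-coding gene start did. In the pooled relaxed list 328 tRNA genes had a summit (53.6%, against 10.7% of tiles). Replicate 1 gave 310 genes (50.7%, against 9.35% of tiles) and replicate 2 gave 312 (51%, against 9.89% of tiles). These tile shares are a background and not a matched control, since tRNA genes differ from average DNA in base composition and position.

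The 148 genes shared 140 optimal peaks, which made up 3.79% of the optimal list although the windows covered 0.272% of the 6 chromosomes. Of these peaks, 130 lay in the window of 1 tRNA gene and 10 in the windows of 2. Only 2 genes, R04A9.t1 and W02H3.t1, had more than 1 optimal summit. A further 180 tRNA genes (29.4%) had a summit in the pooled but not the optimal list, at signals from 25.7 to 90.3. Of these, 111 also had one in both replicate lists, 55 in 1 and 14 in neither. Another 46 (7.52%) had a summit in a replicate list but not in the pooled or optimal list. The remaining 238 tRNA genes (38.9%) had no summit in any list. A peak list shows where a summit was placed, and a gene without one may still hold signal below the level at which peaks were listed.

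The summits sat on the start of the tRNA gene. With each optimal summit given to its nearest tRNA gene and counted from the 5′ end on the tRNA strand, the median position was 7 bp into the gene, with quartiles at -17.5 and 45.0 bp over 140 summits. Of these, 105 (75%) fell within 50 bp of the 5′ end, 50 upstream of the gene, 76 in the gene body and 14 downstream. The 50-bp bins on either side of the 5′ end held 42 and 62 optimal summits, and the next bins out held 7 and 18. Between 200 and 1000 bp away the bins held 0 or 1 optimal summit, except a single downstream bin with 3. The weaker summits, in the pooled list but not the optimal list, also centred on the gene, with a median at 34.0 bp, but were more spread out, with 83 of 194 (42.8%) within 50 bp of the 5′ end.

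**Figure D1:**
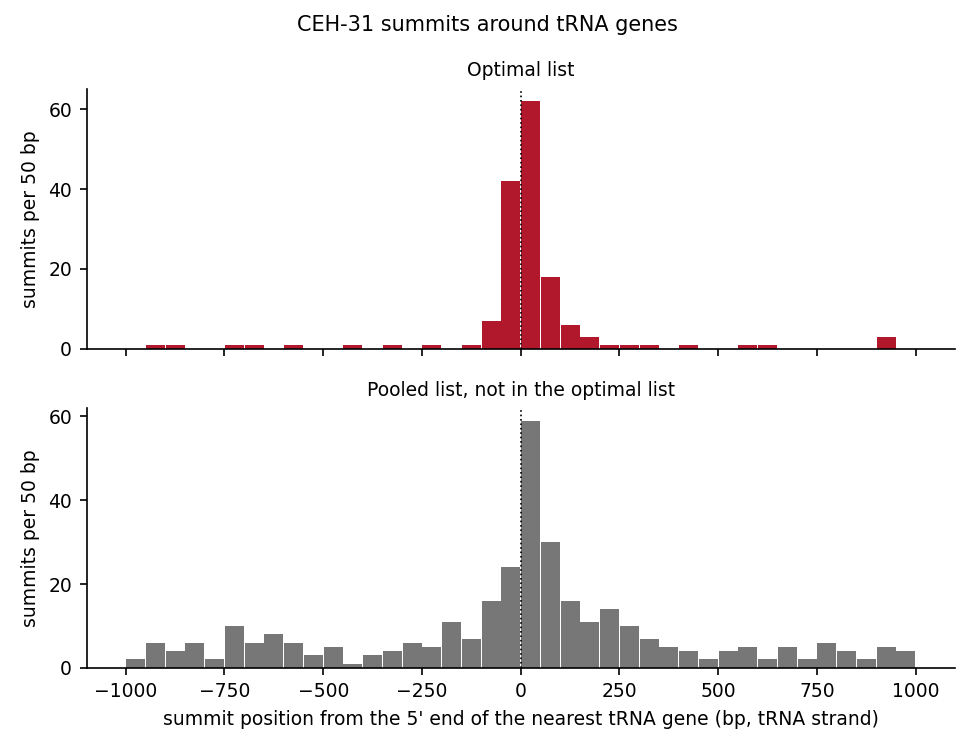
Number of summits per 50-bp bin (vertical axis) against the distance in bp from the 5′ end of the nearest tRNA gene on the tRNA strand (horizontal axis, upstream negative), for the optimal list (top) and for pooled peaks outside it (bottom). The 2 bins around the 5′ end hold 42 and 62 of the optimal summits, while the weaker summits show a lower, broader centre on a visible floor.

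The peaks at tRNA genes were of middling strength within the optimal list. Peak signal, the value the authors' caller gave each peak, ranged from 90.7 to 447 over the 140 peaks, with a median of 156 and quartiles at 122 and 207. The other 3557 optimal peaks had a median of 148 and quartiles at 112 and 219, but reached 3595. The most intense tRNA peak ranked 160 in the list. With the list split by rank into 10 parts of equal size, tRNA peaks made up 1.63% of the strongest part, between 4.32% and 5.14% of each of the next 6, and between 2.16% and 2.97% of each of the 3 weakest.

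Among the 15 most intense tRNA genes, counting 1 gene per summit, 12 lay on X. C04A11.t1, a leucine tRNA gene of 119 bp in intergenic DNA, had a signal of 229 in replicate 1, 215 in replicate 2 and 447 in the optimal list, with its summit 17 bp into the gene. F41D9.t3, an asparagine tRNA gene (chrX:8404499-8404571) in an intron of sulp-3, a sulfate permease family gene, on the opposite strand, had 231 and 204 in the replicates and 436 in the optimal list, and its summit was 28 bp upstream. R04A9.t1, a glutamine tRNA gene, had 243 and 186 in the replicates and 430 in the optimal list. Its strongest summit was 112 bp upstream of the gene, farther than in any other of the 15. C28G1.t1, a glutamate tRNA gene (chrX:8836113-8836184) touching an exon of C28G1.2, had 184 and 200 in the replicates and 387 in the optimal list. The replicates placed the summits of these genes close together, for example 13 and 24 bp into C04A11.t1.

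The strongest tRNA gene off X was F57F5.t1, an isoleucine tRNA gene on V with 191 and 159 in the replicates and 355 in the optimal list, 15 bp upstream of its 5′ end. Its body occurs once in the 6 chromosomes, and its nearest protein-coding start is 379 bp away at gcy-33, a guanylyl cyclase gene. C37A2.t1, a cysteine tRNA gene in an intron of cye-1 (cyclin E) on the same strand, led on I (6781803 to 6781874) with 152 and 158 in the replicates and 312 in the optimal list, and its summit was on the first base of the gene. T21B4.t1, an isoleucine tRNA gene inside the collagen gene col-85, led on II with 147 and 138, and 286 in the optimal list. K11H3.t2 (serine, signal 210) in twk-48, a potassium channel gene, led on III, and F29C4.t1 (arginine, signal 243) in the transmembrane collagen gene col-99 led on IV. Each of these autosomal leaders was below the 10 most intense tRNA genes except F57F5.t1.

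The other genes among the 15 were all on X, with optimal signals from 282 to 345. They were C42D8.t1 (isoleucine, 345) near ets-5, an ETS transcription factor gene, C53C7.t2 (serine, 331), C33G3.t2 (lysine, 328), F15G9.t1 (alanine, 319), W03G11.t1 (lysine, 314), C06G1.t1 (histidine, 312), M02F4.t1 (glycine, 290) and F17H10.t1 (glycine, 282). F15G9.t1 lay in an intron of him-4, which encodes the extracellular matrix protein hemicentin, and F17H10.t1 in an intron of snx-17, a sorting nexin gene, both on the host's strand. C06G1.t1 differed most between the replicates in this group, at 108 in replicate 1 and 202 in replicate 2.

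The X chromosome held many more tRNA genes than any autosome, and its occupied genes had a higher median signal, while the intervals of the shares of occupied genes overlapped. X carried 276 of the 612 genes (45.1%), or 15.6 per Mb, against 3.73 to 4.64 per Mb on the autosomes. An optimal summit was found at 70 of 276 genes on X (25.4%, interval 20.6% to 30.8%) and at 78 of 336 on the autosomes (23.2%, interval 19% to 28%). Single autosomes ranged from 14 of 78 on V (17.9%) and 12 of 66 on I (18.2%) through 17 of 71 on IV (23.9%) and 16 of 57 on II (28.1%) to 19 of 64 on III (29.7%). In the optimal list the interval of each chromosome overlapped those of all others. In the pooled list III again led with 44 of 64 genes (68.8%, interval 56.6% to 78.8%). X stood at 137 of 276 there (49.6%, interval 43.8% to 55.5%), and these intervals of III and X did not overlap.

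Signal at the occupied genes differed more between X and the autosomes. The median optimal signal per gene was 197 over the 70 genes on X, with a range from 92.7 to 447, while the autosomal medians were 152 on I, 138 on II, 146 on III, 124 on IV and 154 on V. The ranges of all 6 chromosomes overlapped. Over the peaks themselves, those at tRNA genes had a median of 182 on X (66 peaks) and 144 on the autosomes (74 peaks). The other optimal peaks did not share this order, with medians of 144 on X (710 peaks) and 150 on the autosomes (2847 peaks). With only the stronger 50% of the optimal list, 51 of 276 tRNA genes on X (18.5%) and 32 of 336 on the autosomes (9.52%) still had a summit.

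**Figure D2:**
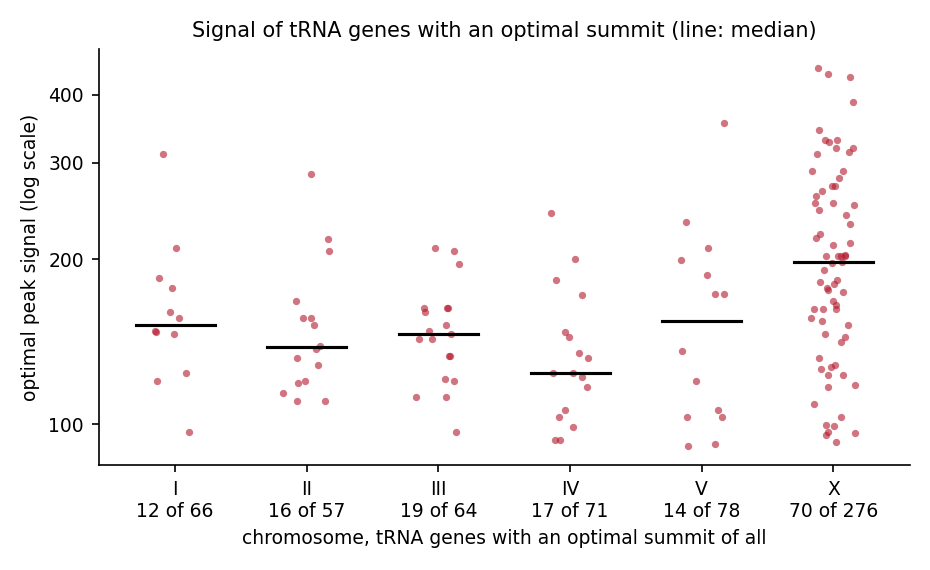
Optimal peak signal (vertical axis, log scale) of each tRNA gene with an optimal summit, by chromosome (horizontal axis, with the number of such genes out of all tRNA genes), each point 1 gene and the line the median. The points on X reach 447 around a median of 197, above the autosomal medians of 124 to 154, with wide overlap.

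The position of a tRNA gene relative to protein-coding genes was described next. Of the 612 genes, 319 lay outside protein-coding genes, 160 in an intron of a gene on the same strand, 122 in an intron of a gene on the opposite strand, 1 in introns on both strands, and 10 touched an exon. An optimal summit was present at 81 of those outside (25.4%, interval 20.9% to 30.4%), at 32 of those in a same-strand intron (20%, 14.5% to 26.9%) and at 31 of those in an opposite-strand intron (25.4%, 18.5% to 33.8%). The median signal of these occupied genes was 162, 152 and 165. These intervals overlapped, so no order among the 3 positions is given. Within X the shares were 26.1% outside (47 of 180) and 23.2% in introns (22 of 95), and within the autosomes 24.5% (34 of 139) and 21.8% (41 of 188).

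Of the 10 genes that touched an exon of a protein-coding gene, 4 had an optimal summit. Besides C28G1.t1 these were K02D7.t1 (aspartate, signal 117) at grl-26, W02G9.t2 (threonine, 103) and Y69A2AR.t2 (glutamate, 93.5) at mdf-2, a spindle checkpoint gene. The other 6 included Y73F8A.t3 and Y73F8A.t4, both serine genes, with no summit in any list.

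Most tRNA genes, with or without a summit, lay outside protein-coding promoter windows. Of the optimal peaks at tRNA genes, 32 of 140 (22.9%) had their summit in a promoter window, taken as 1000 bp upstream to 200 bp downstream of a protein-coding start, against 49% of the other optimal peaks. Of the 491 tRNA genes outside any promoter window, 111 had an optimal summit (22.6%), and of the 121 inside one, 37 (30.6%, interval 23.1% to 39.3%). On the autosomes these shares were 19.8% (52 of 263) and 35.6% (26 of 73), with intervals of 15.4% to 25% and 25.6% to 47.1%. On X they were 25.9% (59 of 228) and 22.9% (11 of 48). Where a promoter window and a tRNA gene coincide, the list does not say to which of them a summit belongs. The median distance to the nearest protein-coding start was 1502 bp for the occupied tRNA genes and 1798 bp for the others.

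**Figure D3:**
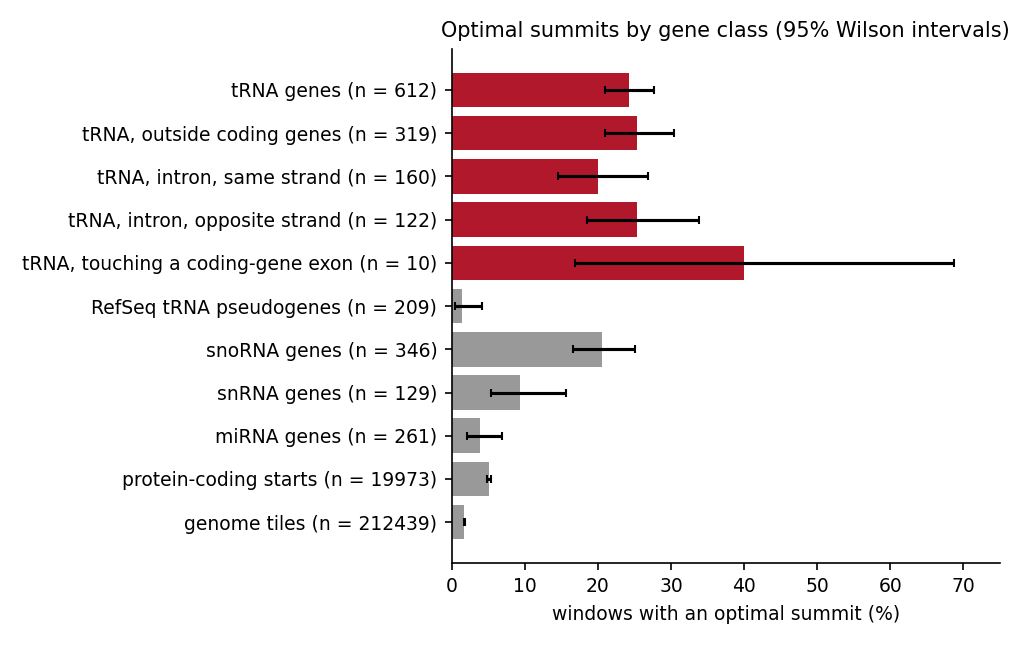
Share of windows with an optimal summit in percent (horizontal axis), with 95% Wilson intervals, for all tRNA genes and 4 host positions (red) and for other features (grey). tRNA genes stand at 24.2%, snoRNA genes at 20.5%, tRNA pseudogenes at 1.44% and genome tiles at 1.69%.

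Where both replicate lists held a summit, they gave much the same picture of the tRNA genes. A summit in only 1 replicate list was found at 55 genes with a pooled summit and at 43 without one. Those genes are outside the coefficients below. All 148 genes with an optimal summit had a summit in both replicate lists, which is partly built in, as the optimal list used both. Their signal had a median of 82.3 in replicate 1 (range 23.6 to 243) and 84.7 in replicate 2 (35.5 to 215). Across the 148 genes the log2 signals of the replicates had a Spearman coefficient of 0.767 and a Pearson coefficient of 0.770. Across all 262 tRNA genes with a summit in both lists these were 0.862 and 0.860. Both coefficients are descriptions across genes, some of which share a peak, and carry no p-value. The summits of the replicates were a median of 24.0 bp apart over the 148 genes, and 112 pairs (75.7%) were within 50 bp. Taking from each replicate as many of its strongest peaks as the optimal list holds, 126 of the 148 genes were occupied in both replicates, 21 in 1 replicate and 1 in neither.

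Some genes were uneven between the replicates. C06B8.t3, a glycine tRNA gene on V, had 23.6 in replicate 1 and 68.2 in replicate 2, with an optimal signal of 91.8 near the lower end of the list. It was singled out after its values were seen. Among the 50 most intense tRNA genes the largest differences in rank between replicates were at F28F8.t3 (aspartate), which ranked 2051 in replicate 1 with a signal of 68.4 and 777 in replicate 2 with 125, T14F9.t1 (aspartate), which ranked 1549 with 81.5 and 711 with 130, and F56F3.t1 (arginine), which ranked 910 with 107 and 1572 with 86.6.

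**Figure D4:**
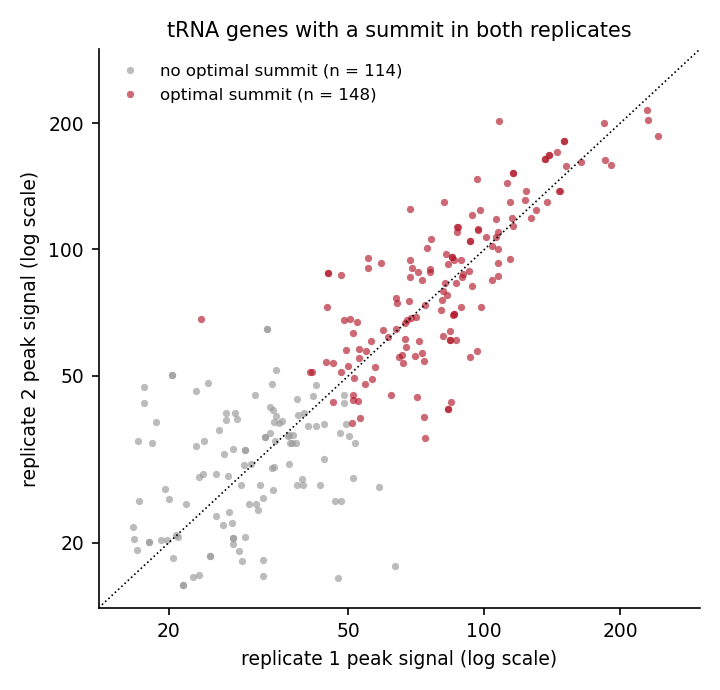
Peak signal in replicate 1 (horizontal axis, log scale) against replicate 2 (vertical axis, log scale) for the 262 tRNA genes with a summit in both, with genes of the optimal list in red (n = 148) and others in grey (n = 114), and the dotted line marking equal values. The points follow the line over the whole range, and C06B8.t3 (23.6 and 68.2) lies farthest to the left among the red points.

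The signals on either side of the threshold of the optimal list were close. Counting 1 gene per summit, the strongest tRNA genes of the pooled list that had no optimal summit were W09D6.t1 (proline, signal 90.3, a summit that W09D6.t2 shares), Y51H7BR.t1 (serine, 89.4), Y119D3B.t1 (isoleucine, 89.3), ZK507.t1 (asparagine, 88.5) and F12D9.t1 (cysteine, 88.4). All 5 had a summit in both replicates. The weakest with an optimal summit was C10G8.t1, a glutamine gene, at 91.0.

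Genes for every standard amino acid carried optimal summits. RefSeq names the amino acid for 607 of the 612 genes. The share with an optimal summit ran from 3 of 20 asparagine genes (15%, interval 5.24% to 36%) and 5 of 29 isoleucine genes (17.2%) to 4 of 13 cysteine genes (30.8%) and 13 of 39 leucine genes (33.3%, interval 20.6% to 49%). The largest groups were close to the overall 24.2%, with 14 of 55 glycine (25.5%), 10 of 46 lysine (21.7%), 10 of 44 arginine (22.7%), 10 of 42 proline (23.8%) and 12 of 41 glutamate genes (29.3%). All of these intervals overlapped. The selenocysteine tRNA gene K11H12.t1 had no optimal summit, a pooled signal of 52.5 and a summit in replicate 2 only. The 5 genes with no amino acid given had no optimal summit (0 of 5, interval 0% to 43.4%).

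The isoleucine genes were few among the occupied but intense. Their 5 signals ran from 212 to 355, with a median of 286, while the median was 200 for leucine and between 103 and 193 for the other amino acids. For the amino acids with no gene among the leaders so far, the strongest were F46G11.t2 for proline (272), R01H5.t1 for threonine (267), F38G1.t2 for aspartate (261) in the fibroblast growth factor gene egl-17, R04D3.t2 for valine (253), R11.t1 for tyrosine (251), B0523.t1 for tryptophan (207) in fli-1, F22F1.t6 for methionine (203) and F32A6.t1 for phenylalanine (168) in the stomatin gene sto-2. Of these 8, only B0523.t1 was not on X.

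Identical tRNA genes differed from each other in whether they had an optimal summit. The 612 genes had 200 distinct body sequences, of which 57 were annotated at least 2 times and covered 469 genes. In 42 of these 57 families some copies had an optimal summit and others did not. In 3 families every copy had one (C43G2.t1 with ZK678.t1, F10C1.t2 with C40H5.t1, and F29C4.t1 with F28H6.t1), and in 12 no copy did. The largest family, 29 glycine genes, had 7 copies with an optimal summit (24.1%, against 24.2% of all tRNA genes), at signals from 93.3 to 290. In the pooled list 22 of the 29 had a summit. Of the 15 copies of the R04A9.t1 sequence shown above, 3 had an optimal summit, at signals of 91.0, 99.6 and 430, and 10 had a pooled summit. The 7 copies of the leucine gene C27A12.t1 had none in the optimal list and 4 in the pooled list.

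A read that lies wholly inside an identical body matches every copy. Of the 50-bp words in a tRNA window, a median of 91.5% occurred once in the 6 chromosomes, both for genes with an optimal summit (range 72.3% to 100%) and for those without (8.51% to 100%). Genes whose body was found once had an optimal summit in 24 of 140 cases (17.1%, interval 11.8% to 24.2%), those found 2 to 9 times in 44 of 153 (28.8%, 22.2% to 36.4%), and those found 10 or more times in 80 of 319 (25.1%, 20.6% to 30.1%). How the authors placed reads with several matches is not given in the sources used here, and its part in these shares was not tested.

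The internal promoter differed little between occupied and other tRNA genes. The B box core GTTCGANNC, searched on the tRNA strand, was in 441 of 612 bodies (72.1%), in 73.0% of those with an optimal summit and in 71.8% of those without. It was in 0.260% of plus-strand tiles of the median tRNA length. The A box core was in 60.1% of the occupied and 54.3% of the other bodies, and in 3.12% of tiles. Genes with both cores had an optimal summit in 70 of 261 cases (26.8%) and genes with neither in 21 of 91 (23.1%, interval 15.6% to 32.7%). A run of TTTT, the RNA polymerase III termination signal, was in the 50 bp downstream of 99.3% of the occupied and 98.7% of the other genes, and in 51.3% of 50-bp tiles.

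Base composition just upstream of the gene did differ. In the 50 bp before the 5′ end, G and C made up 47.3% ± 7.88 (SD over 148 genes) of bases at genes with an optimal summit, 44.0% ± 9.42 at the 180 genes with a pooled but no optimal summit, and 39.2% ± 8.92 at the 284 genes with no pooled summit. The spreads overlap widely. Farther out, 151 to 200 bp upstream, the means were 34.7% ± 10.9 with and 36% ± 11.1 without an optimal summit. By upstream composition, an optimal summit was found at 0 of 48 genes with under 30% G and C (interval 0% to 7.41%). It was found at 21 of 176 with 30% to under 40% (11.9%) and at 64 of 233 with 40% to under 50% (27.5%). At 50% or more it was found at 63 of 155 (40.6%, interval 33.2% to 48.5%). Protein-coding starts, binned by their own upstream 50 bp, gave 5.01%, 2.77%, 5.54% and 16.5%.

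The same order was seen on both kinds of chromosome and within most families of identical bodies. On X the mean upstream G and C content was 45.8% at occupied genes and 37.2% at genes with no pooled summit, and on the autosomes 48.7% and 41.2%. Among the 20 families with at least 10 identical copies, 18 had a higher mean at copies with an optimal summit than at copies without one, and 2 (a proline and an isoleucine family) had a lower one. In the 29-copy glycine family, with 7 occupied copies, the means were 50.6% and 37.6%. Many of the families had few occupied copies, down to 1 of 10 in the phenylalanine family. Some differences were small, such as 44.7% and 44.0% in the 25-copy lysine family. These values were computed after occupancy was known and describe these genes. The 100 bp on either side of the other optimal summits also had more G and C (45.5%) than tiles of that size (35.4%), and around the tRNA summits it was 48%. Any part of base composition in how well DNA was recovered or sequenced was not tested.

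**Figure D5:**
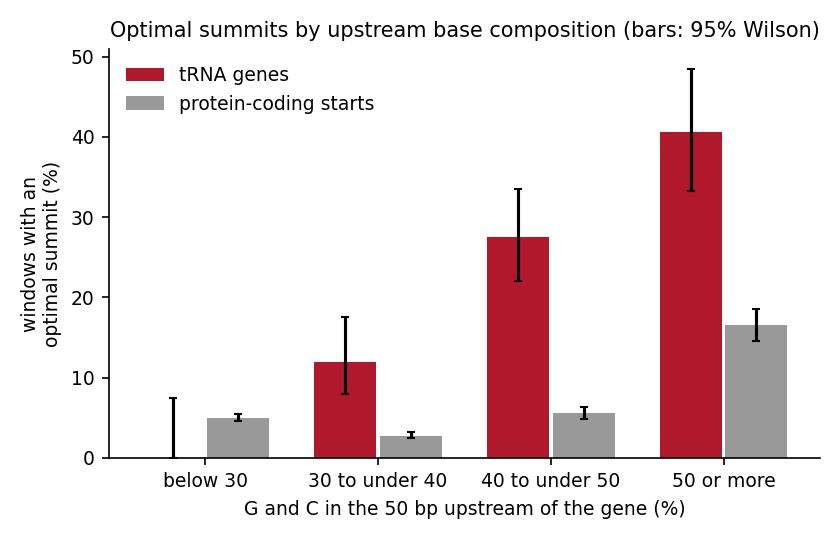
Share of windows with an optimal summit in percent (vertical axis), with 95% Wilson intervals, against the G and C content of the 50 bp upstream of the gene (horizontal axis, 4 bins), for tRNA genes (red) and protein-coding starts (grey). The tRNA bars go from 0 of 48 to 63 of 155 (40.6%), and protein-coding starts are highest in the last bin at 16.5%.

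Of the sequence cores that Bar-class proteins are known to bind, TAATTG was rare at the tRNA summits, while TAAACG differed less from other summits. TAATTG or TAAACG, searched on both strands within 100 bp of the summit, occurred at 9 of 140 tRNA summits (6.43%), at 17.7% of the other optimal summits and in 20.9% of all tiles of that size. TAATTG was at 3 of the 140, at 444 of the 3557 other optimal summits and in 78675 of 498866 tiles. TAAACG was at 6, 220 and 30384 of these. Around the 5′ ends of tRNA genes either core occurred at 8 of 148 with an optimal summit (5.41%) and 57 of 464 without (12.3%). There TAATTG was at 0 and 34 genes, and TAAACG at 8 and 25. Absence of these letters says nothing about the protein. The G and C content given above differs between these sets, and its part in the counts was not tested.

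Neighbouring tRNA genes with an optimal summit often shared it. Windows overlapped in 82 pairs of adjacent tRNA genes. An optimal summit lay in the joint span of 4 of 38 divergent pairs (10.5%), 6 of 19 convergent pairs (31.6%) and 7 of 25 pairs on the same strand (28.0%). Of the 17 pairs with a summit in their joint span (20.7% of all 82), 10 had a single summit that fell in both windows. Among these 10, the shared summit lay between the genes in the 3 divergent pairs and inside a gene in the other 7. The divergent pairs with a shared summit were M02F4.t2 and M02F4.t1 (glutamate and glycine, signal 290), F46G11.t2 and F46G11.t1 (both proline, 272) and C53C7.t2 and C53C7.t1 (both serine, 331). Their intervening DNA is shown because it holds the summit outside any tRNA body. Capitals mark the 11 bases centred on the summit:
M02F4.t2 to M02F4.t1 (chrX:3036048-3036163, + strand): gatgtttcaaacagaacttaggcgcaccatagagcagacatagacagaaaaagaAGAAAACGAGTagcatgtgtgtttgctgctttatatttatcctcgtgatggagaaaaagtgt
F46G11.t2 to F46G11.t1 (chrX:5801283-5801471, + strand): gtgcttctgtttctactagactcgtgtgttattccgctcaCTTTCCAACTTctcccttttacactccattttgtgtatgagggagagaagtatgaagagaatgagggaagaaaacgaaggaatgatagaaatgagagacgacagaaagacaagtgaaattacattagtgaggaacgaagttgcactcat
C53C7.t2 to C53C7.t1 (chrX:13046448-13046577, + strand): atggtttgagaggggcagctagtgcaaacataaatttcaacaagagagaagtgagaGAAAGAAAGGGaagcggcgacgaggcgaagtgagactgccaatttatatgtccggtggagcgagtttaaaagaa

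The 3 gaps were 116, 189 and 130 bp long, and their G and C content was 38.8%, 40.2% and 45.4%. tRNA genes with another tRNA gene within 500 bp had an optimal summit in 28 of 170 cases (16.5%, interval 11.6% to 22.8%), and the more isolated ones in 120 of 442 (27.1%, 23.2% to 31.5%).

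tRNA pseudogenes, which resemble tRNA genes in sequence, carried few optimal summits. RefSeq lists 209 on the 6 chromosomes, and with the same extension 3 of them (1.44%, interval 0.489% to 4.13%) had one, a share near the 1.69% of all tiles. In the pooled list 34 had a summit (16.3%, interval 11.9% to 21.9%), against 10.7% of tiles. The B box core was in 68.9% of the pseudogenes and the A box core in 60.3%. This class was added after the tRNA values were seen. Other short RNA genes, with the same extension, gave 71 of 346 snoRNA genes (20.5%, interval 16.6% to 25.1%), 12 of 129 snRNA genes (9.30%, 5.40% to 15.6%) and 10 of 261 miRNA genes (3.83%, 2.09% to 6.91%). The interval for tRNA genes overlapped that for snoRNA genes and lay above those for the other classes. With no extension at all the shares were 12.4% for tRNA genes, 1.16% for snoRNA genes and 0.775% for snRNA genes. The differences between classes were not tested.

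The genes that make and process tRNAs were looked at as well. Of 18 listed genes, 5 had an optimal summit in their promoter window (27.8%, interval 12.5% to 50.9%), against 11.5% of all 19973 protein-coding genes. They were rtcb-1, the tRNA ligase that joins the exons of spliced tRNAs (signal 299, replicates 152 and 146), elpc-1, a subunit of the Elongator complex that modifies tRNA wobble bases (199, replicates 79.9 and 117), rpb-8 (133) and rpac-19 (122), which encode subunits shared by RNA polymerases, and xpo-3, a tRNA export receptor gene (102). The summit at rtcb-1 was 727 bp upstream of its start, and those of the others were 97 to 242 bp upstream. Whether the summit so far out belongs to rtcb-1 was not tested. The largest subunit gene of RNA polymerase III, rpc-1, had a pooled signal of 67.3 and no optimal summit. Genes for the TFIIIB components brf-1 and tbp-1 had no summit in any of the 4 lists, and mafr-1, which encodes the repressor Maf1, had a pooled signal of 59.5 and no optimal summit. In all, 5 of the listed genes had a pooled but no optimal summit and 8 had neither.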

How the data were processed

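Per the labels, both replicates were whole late embryos pulled down for tagged CEH-31. Of the deposited peak lists those on ce11 were used. Per the labels, a control alignment entered the calling of each relaxed list, and the optimal list came from a threshold on the irreproducible discovery rate. No aligner, caller, version or threshold is named in the sources used here. The signal the authors deposited for each peak has no stated scale and was used within a list only. The deposited −log10 q was 3.36 to 3.83 at tRNA peaks. The deposited summit offset (another column of the same lists) gave positions. Read depth is unknown.

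tRNA genes came from Ensembl release 115, and amino acids and pseudogenes from RefSeq, matched by WormBase identifier, on the same assembly (WBcel235). Windows were searched with Python 3.11.15, NumPy 2.4.6, pandas 2.3.3 and SciPy 1.17.1, checked on simulated summits. Intervals are 95% Wilson intervals and cover the number of genes only. No p-values were computed, since there is 1 group. Named genes are the 15 most intense (1 per summit), the leader of each chromosome, host position and amino acid with at least 10 genes, the 5 strongest outside the optimal list and the 3 of the 50 most intense with the largest rank difference. Genes and lists were chosen with earlier results of these data known, although all genes of biotype tRNA were taken whatever their values. Pair orientation, upstream composition and pseudogenes were added after the tRNA values were seen. Alternatives varied the window, peak strength, unit, subset and replicate.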

Additional observations from a re-analysis of the deposited data

How the results depend on the processing

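No paired analysis was possible because there is a single group. The share of tRNA genes with an optimal summit (24.2%) was 12.4% with no extension, 22.9% with 100 bp, 26.0% with 500 bp, 13.6% with the stronger 50% of the list, 17.1% for bodies found once, 22.6% outside promoter windows and 26.0% over 530 merged loci. With a single replicate, cut to as many of its strongest peaks as the optimal list holds, it was 23.4% to 25.2%. All single-replicate settings here use this cut, so their closeness to the main values partly follows from the equal list length. The uncut replicate lists gave the higher shares stated in the Results. On X (25.4%) the share was 12.3%, 23.9% and 27.9% with 0, 100 and 500 bp, 18.5% with the stronger 50%, and 24.3% to 26.1% with a single replicate. On the autosomes (23.2%) it was 12.5% with no extension, 9.52% with the stronger 50%, and 22.6% to 24.4% with a single replicate. Outside coding genes (25.4%) it was 12.9%, 23.2% and 28.2% with 0, 100 and 500 bp, 14.1% with the stronger 50%, and 24.8% to 26.6%. In coding genes (22.9%) it was 11.9% with no extension, 13.0% with the stronger 50%, and 21.8% to 23.5%. The median signal per gene (160) was 203 in the stronger 50%, as its construction sets, and 150 for bodies found once. Over genes occupied in a single replicate it was 156 to 162, but these signals were read from the pooled list. They are therefore no measure of signal in 1 replicate. In the replicates' own lists the 148 occupied genes had medians of 82.3 and 84.7. The median position per gene (6 bp) was 20 bp with no extension, which drops upstream summits, and 4.00 to 9.50 bp with a single replicate. With 0, 100 and 500 bp, snoRNA genes gave 1.16%, 18.5% and 25.7%, snRNA genes 0.775% and 10.9% (0 and 500 bp), miRNA genes 0.766%, 2.68% and 13.8%, and protein-coding starts 0.00501%, 2.10% and 9.44%. With a single replicate these were 20.2% to 20.5%, 7.75% to 8.53%, 3.45% and 4.85% to 5.00%. The cause of the lower share for bodies found once was not tested.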
